A study of Rattus norvegicus with 15 samples.

Results

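The Cyp4a genes encode cytochrome P450 enzymes that add a hydroxyl group to the terminal (omega) carbon of fatty acids. They were taken here as the rows of the rat liver count table named Cyp4a1, Cyp4a2, Cyp4a3 and Cyp4a8, which are 4 of 32623 genes in the table. Their Ensembl identifiers there are ENSRNOG00000009597, ENSRNOG00000030154, ENSRNOG00000009741 and ENSRNOG00000008842 in this order, all on chromosome 5. All 4 passed the filter on low counts that kept 14417 genes. The family was chosen by the measured log2 fold change of Cyp4a2, which was among the largest falls in cirrhosis against control. The values of the 4 genes in cirrhosis against control are therefore a description that carries no test.

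CYP4A enzymes sit in the endoplasmic reticulum and take electrons from P450 oxidoreductase (POR). Their omega-hydroxylated products are oxidised by alcohol and aldehyde dehydrogenases to dicarboxylic acids, which are then shortened in peroxisomes. The enzymes also hydroxylate arachidonic acid to a lipid mediator that acts on blood vessels. In rodent liver the Cyp4a genes are classical targets of the fatty acid receptor PPARA, and Cyp4a2 of the rat is known for higher hepatic expression in males.

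All rats were male Wistar rats, and RNA came from whole liver. The study states that rats were picked for sequencing by how well cirrhosis induction, eplerenone treatment or both had worked. Control rats received no treatment (4 rats, replicates 2 to 5, with control replicate 1 not analysed here). In the cirrhosis group (5 rats) the animals inhaled carbon tetrachloride (CCl4), a liver toxin, for 12 weeks and drank phenobarbital at 0.35 g/L. Cirrhosis & eplerenone rats (5 rats) had the same CCl4 and phenobarbital, and from week 8 to week 12 they also ate eplerenone, an antagonist of the mineralocorticoid receptor, at 100 mg per kg body weight in hazelnut spread. Livers were taken 7 to 10 days after the last CCl4. Phenobarbital, an inducer of many liver P450 genes, was given to both CCl4 groups and to no control, so its effect and that of CCl4 cannot be told apart. The labels of the animals also start with a number whose meaning is not stated. It was 13 or 16 in controls, 15 in the first 3 replicates of cirrhosis and the first 2 of cirrhosis & eplerenone, and 20 in the other CCl4-treated rats. Whatever follows these numbers cannot be told apart from CCl4, but it can be compared among the 10 CCl4-treated rats.

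Between 16157491 and 21574767 reads were counted per liver. Levels are given as FPM, reads per 1000000 reads of a library whose size was scaled by TMM, and 3 counts stood for 0.121 to 0.191 FPM. FPM is not divided by gene length and compares rats, not genes. Markers of hepatocytes, the cells that express Cyp4a genes in liver, were detected in every rat. The summed level of the 10 hepatocyte markers was 184043 to 214010 FPM in controls, 142881 to 200218 FPM in cirrhosis and 111544 to 203249 FPM in cirrhosis & eplerenone. Cirrhosis replicate 5 stood apart from the other 4 cirrhosis rats, which reached 161639 FPM at most. Where edgeR's quasi-likelihood test called 13.4% of all genes higher in cirrhosis, it called all 6 cholangiocyte markers and 5 of 7 stellate cell markers higher. Their summed levels were 46.4 to 142.4 FPM against 14.4 to 23.6 FPM in controls for cholangiocytes and 243.1 to 514.8 FPM against 123.4 to 222.3 FPM for stellate cells. Of the 10 hepatocyte markers the same test called 1 lower in cirrhosis, Hnf4a, and 0 higher, where it called 6.71% of all genes lower. For 2 of the 10 the log2 fold change was above 0, so their sum does not stand for each marker. In bulk RNA, fewer hepatocytes and less RNA of a gene per hepatocyte cannot be told apart.

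Promoter windows of 3 of the 4 genes were taken from RefSeq (assembly GRCr8). They run from 250 bases before to 50 bases after the annotated start. The windows are shown because Cyp4a2 and Cyp4a3, the genes with the largest falls, are near-identical copies, while Cyp4a8 is more distant. Capitals mark AGGTCA, the half-site bound by nuclear receptors such as PPARA, and TTCNNNGAA, the site of STAT factors.
Cyp4a2: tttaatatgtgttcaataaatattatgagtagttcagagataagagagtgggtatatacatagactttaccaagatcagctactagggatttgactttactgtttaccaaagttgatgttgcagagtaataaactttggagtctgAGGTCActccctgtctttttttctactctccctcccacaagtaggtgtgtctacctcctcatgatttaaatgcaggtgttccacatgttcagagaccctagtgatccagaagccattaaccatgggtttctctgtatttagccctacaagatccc
Cyp4a3: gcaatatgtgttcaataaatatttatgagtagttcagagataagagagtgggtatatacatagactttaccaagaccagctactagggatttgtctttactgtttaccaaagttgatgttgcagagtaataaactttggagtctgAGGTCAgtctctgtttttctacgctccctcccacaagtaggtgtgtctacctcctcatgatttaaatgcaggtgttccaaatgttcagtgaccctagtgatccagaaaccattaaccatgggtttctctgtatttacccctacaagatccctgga
Cyp4a8: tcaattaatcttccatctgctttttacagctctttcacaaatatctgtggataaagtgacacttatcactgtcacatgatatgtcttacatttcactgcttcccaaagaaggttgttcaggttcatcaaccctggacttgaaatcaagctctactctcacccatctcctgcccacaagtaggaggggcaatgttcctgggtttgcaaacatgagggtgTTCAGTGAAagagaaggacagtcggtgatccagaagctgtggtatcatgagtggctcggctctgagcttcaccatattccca
All lie on the minus strand of chromosome 5, Cyp4a2 at chr5:134170859-134171158, Cyp4a3 at chr5:134352187-134352486 and Cyp4a8 at chr5:133970177-133970476.

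The windows of Cyp4a2 and Cyp4a3 had 284 identical bases of 295 aligned (96.3%, with 10 gap bases). Cyp4a8 shared 69.5% of aligned bases with Cyp4a2 (62 gap bases) and 71.3% with Cyp4a3 (70 gap bases). In both Cyp4a2 and Cyp4a3, AGGTCA stood at the same place, with its first base 105 bases before the start. Read on both strands, this half-site was present in 5415 of 33469 rat promoter windows of this length. Its direct repeat with 1 base between, AGGTCANAGGTCA, was in none of the 3 windows and in 0.0538% of all windows. TTCNNNGAA occurred in the Cyp4a8 window alone among the 3, 32 bases before the start, and in 8.87% of all windows. The half-site of the glucocorticoid and mineralocorticoid receptors, TGTTCT, was in none of the 3 and in 20.7% of all windows. These matches describe letters only, and nothing about binding was measured.

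On the chromosome the RefSeq order is Cyp4a8, Cyp4a2, Cyp4a2l1, Cyp4a3 and Cyp4a1, with 3 pseudogenes between. Cyp4a2l1 matched Cyp4a2 in 264 of 264 aligned promoter bases, with 72 gap bases. It has no row under that name in the count table. A read with more than 1 matching place was counted at every such place, so the rows of Cyp4a2 and Cyp4a3 can share reads, and the counts of either gene are uncertain to that extent.

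Cyp4a2 was far lower in the livers with cirrhosis than in control livers. In controls its level was 1724, 564.6, 1346 and 622.1 FPM (replicates 2 to 5). In cirrhosis it was 52.8, 20.4, 32.5, 3.23 and 171.8 FPM (replicates 1 to 5), which is 0.304% to 16.15% of the control mean. All 5 cirrhosis rats were below all 4 controls. The same held for 9.03% of genes tested, a share from which nothing is read since the choice used this contrast. The log2 fold change was -4.25 (SE 1.23). It was -5.29 without cirrhosis replicate 5, the rat with the highest level of its group.

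Cyp4a3, whose enzyme shares the fatty acid substrates of CYP4A2, had the same order of groups with a smaller difference. Control livers held 396.9, 207.9, 418.2 and 348.7 FPM. The 5 cirrhosis livers held 154.8, 148.9, 87.0, 45.4 and 117.1 FPM, again all below the lowest control. The log2 fold change was -1.63 (SE 0.59). A row with the reads of Cyp4a2 and Cyp4a3 summed was at -3.08. That row is not a value of Cyp4a3, since controls held 1.78 to 4.34 Cyp4a2 counts per Cyp4a3 count.

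For Cyp4a1, the member best known for its response to fibrates, the groups overlapped. Control levels were 71.2, 71.1, 120.9 and 181.9 FPM, and cirrhosis levels were 72.8, 51.1, 70.4, 29.6 and 77.0 FPM. In 3 of 5 cirrhosis rats the level was below every control. The log2 fold change of -0.89 (SE 0.37) rested in part on control replicate 5, the highest control, and was -0.55 without it.

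Cyp4a8 differed in both directions. Controls had 19.7, 61.1, 11.05 and 24.9 FPM. Cirrhosis rats had 10.5, 2.33, 14.5, 35.4 and 106 FPM, with 2 rats below all controls and 1 above. Its log2 fold change of 0.21 (SE 0.83) turned to -0.90 without cirrhosis replicate 5 and was 0.86 without control replicate 3, so no direction can be given.

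**Figure D1:**
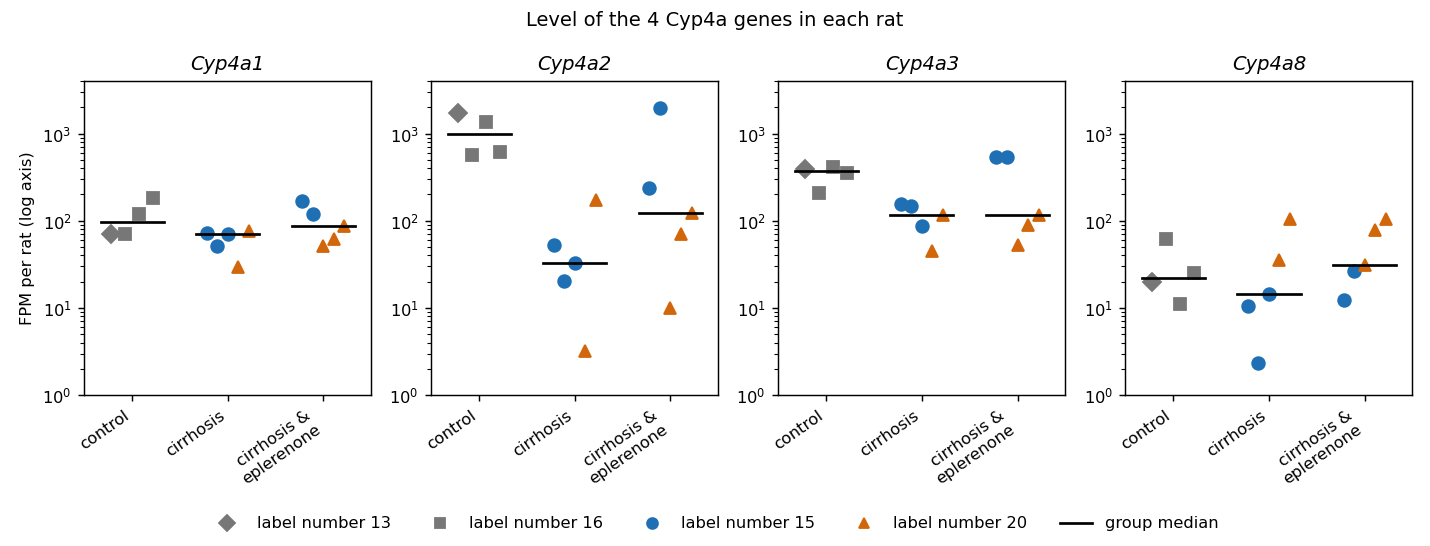
Level of each Cyp4a gene in each of 14 rats, in FPM on a log axis. Points are rats, with the symbol giving the number at the start of the animal label, and bars are group medians. Cyp4a2 and Cyp4a3 of the 5 cirrhosis rats lie below the 4 controls, and Cyp4a8 is higher in the CCl4-treated rats of number 20 than in those of number 15.

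Eplerenone was given to ask whether blocking the mineralocorticoid receptor moves gene expression in the cirrhotic liver. This comparison shares the cirrhosis rats with the choice of the family, so it is not independent of that choice. In cirrhosis & eplerenone, Cyp4a2 was at 239.6, 1984, 10.0, 70.55 and 123.4 FPM (replicates 1 to 5). Replicate 2 was above every control and replicates 1 and 2 were above every cirrhosis rat, while the other 3 lay within the cirrhosis range. The log2 fold change against cirrhosis was 3.11 (SE 1.15), and it did not pass edgeR's quasi-likelihood test after Benjamini-Hochberg adjustment over all genes (FDR 0.314, and 0.143 by DESeq2). Without replicate 2 it was 0.98, and without cirrhosis replicate 5 it was 4.16. In a fit that left out both cirrhosis replicate 5 and replicate 3 of the eplerenone-treated rats, the change of Cyp4a2 was 4.45 and passed (edgeR FDR 0.0273). That fit called 1294 genes in all, and the rats left out had the highest Cyp4a2 of cirrhosis (171.8 FPM) and the lowest of cirrhosis & eplerenone (10.0 FPM). The choice of these rats came from an earlier account of these data. Leaving them out widens the difference in Cyp4a2, so nothing is read from this pass.

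Cyp4a3 was split in the same manner among the eplerenone-treated rats, at 538.1 and 531.1 FPM in replicates 1 and 2 and 52.5, 89.1 and 116.3 FPM in replicates 3 to 5. Its group medians were nearly equal, 116.3 FPM with eplerenone and 117.1 FPM without. The log2 fold change was 1.26 (SE 0.56, edgeR FDR 0.332). Cyp4a1 was at 167.4, 118.8, 51.0, 61.9 and 86.3 FPM, with a log2 fold change of 0.69 (SE 0.36, edgeR FDR 0.368). Cyp4a8 was at 12.2, 26.85, 30.8, 77.5 and 104.7 FPM, all within the range of cirrhosis, with a log2 fold change of 0.58 (SE 0.78, edgeR FDR 0.718).

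None of the 4 genes passed the test of cirrhosis & eplerenone against cirrhosis, where edgeR called 2 of 14417 genes (0.0139%) and DESeq2 called 74. At an unadjusted p under 0.05 the counts were 2 of the 4 genes (Cyp4a2 and Cyp4a3) and 2076 of all genes. For none of the 4 were the eplerenone-treated rats all above the cirrhosis rats, as they were for 0.423% of genes. The number of eplerenone-treated rats above every cirrhosis rat was 3 of 5 for Cyp4a1, 2 of 5 for Cyp4a2 and for Cyp4a3, and 0 of 5 for Cyp4a8.

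Against control, 4 of 5 eplerenone-treated rats had less Cyp4a2 than every control and 3 of 5 had less Cyp4a3. The log2 fold changes of cirrhosis & eplerenone against control were -1.13 (SE 1.12) for Cyp4a2, -0.37 (SE 0.59) for Cyp4a3, -0.20 (SE 0.38) for Cyp4a1 and 0.79 (SE 0.84) for Cyp4a8. This comparison shares the control rats with the choice of the family, so it is not independent of it either. None passed the test by edgeR (FDR 0.643, 0.797, 0.836 and 0.674) or DESeq2, where edgeR called 5.22% of genes, and none had an unadjusted p under 0.05. Cyp4a2 was at -3.26 without cirrhosis & eplerenone replicate 2, also not past the threshold. With standard errors of this size, a difference from control of several fold could not be told from none for Cyp4a2.

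**Figure D2:**
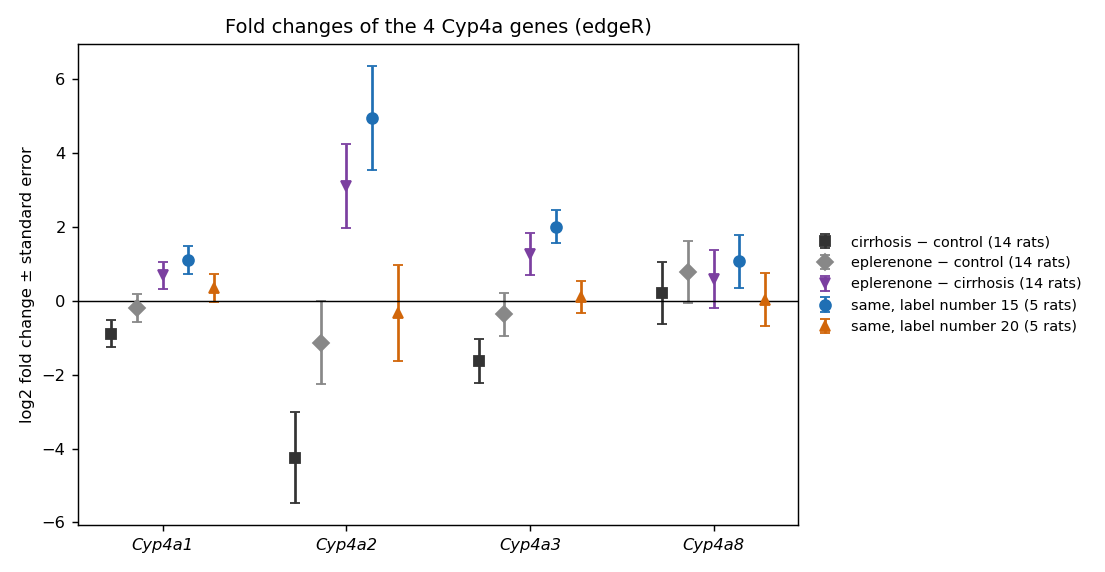
Log2 fold changes of the 4 Cyp4a genes with their standard errors, from edgeR. Squares show cirrhosis against control (a description of the choice), diamonds eplerenone against control, downward triangles eplerenone against cirrhosis, and circles and upward triangles the last comparison within rats of label number 15 and 20, from a fit on the 10 CCl4-treated rats. For Cyp4a2 the value is 4.95 in number 15 and -0.33 in number 20.

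Values with and without eplerenone were also compared within each number at the start of the animal label. In number 15, Cyp4a3 was at 87.0 to 154.8 FPM in the 3 cirrhosis rats and 531.1 to 538.1 FPM in the 2 eplerenone-treated rats. In number 20 the ranges were 45.4 to 117.1 FPM (2 rats) and 52.5 to 116.3 FPM (3 rats). Fitted on the 10 CCl4-treated rats and 13795 genes, the log2 change with eplerenone in number 15 was 2.01 (SE 0.43, edgeR FDR 0.0707) for Cyp4a3, 4.95 (SE 1.42, FDR 0.0939) for Cyp4a2, 1.12 (SE 0.38, FDR 0.113) for Cyp4a1 and 1.07 (SE 0.72, FDR 0.345) for Cyp4a8. There edgeR called 24 genes (0.174%) and none of the 4, with 3739 of all genes at an unadjusted p under 0.05.

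In number 20 the changes with eplerenone were 0.11 (SE 0.44) for Cyp4a3, -0.33 (SE 1.29) for Cyp4a2, 0.34 (SE 0.39) for Cyp4a1 and 0.03 (SE 0.72) for Cyp4a8. For these edgeR called 0 of all genes (0%), with 150 at an unadjusted p under 0.05. The difference between the 2 numbers in the effect of eplerenone was itself tested. It was -5.28 (SE 1.85) for Cyp4a2 and -1.90 (SE 0.61) for Cyp4a3 on the log2 scale and did not pass (edgeR FDR 0.380 and 0.374). That test called 0 of all genes (0%), with 1689 at an unadjusted p under 0.05, and DESeq2 was not run on it. Summed hepatocyte markers of the eplerenone-treated rats were 131356 and 180996 FPM in number 15 (replicates 1 and 2) and 111544, 199561 and 203249 FPM in number 20 (replicates 3 to 5). Replicate 3 had the lowest sum of all 14 rats and the lowest Cyp4a2 of its group, and the part of these markers in the result was not tested.

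Levels of Cyp4a8 separated the CCl4-treated rats by label number. The 5 CCl4-treated rats of number 15 had 2.33 to 26.85 FPM and the 5 of number 20 had 30.8 to 106 FPM. The groups of rats did not overlap, as was so for 1.03% of genes higher in number 20, and 0.689% of genes, none of them a Cyp4a gene, were lower without overlap. Over both treatments, number 20 minus number 15 was 2.41 (SE 0.54, edgeR FDR 0.129) for Cyp4a8 and -1.66 (SE 0.32, FDR 0.0751) for Cyp4a3 on the log2 scale. It was -0.70 (SE 0.27, FDR 0.616) for Cyp4a1 and -1.36 (SE 0.94, FDR 0.901) for Cyp4a2. None passed, and edgeR called 37 genes (0.268%) in this comparison.

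The make-up of the family within a liver was described as well. In cirrhosis against control it follows in part from the fall of Cyp4a2 by which the family was chosen, so it carries no test. Of the reads counted on the 4 genes, Cyp4a2 held 66.0% ± 10.9 in controls (SD, n = 4). The share was 16.5% ± 12.65 in livers with cirrhosis (SD, n = 5), and 31.8% ± 25.3 where eplerenone was given as well (SD, n = 5). These shares compare rats and are not corrected for gene length. All 5 cirrhosis rats, at 2.84% to 36.4%, were below the lowest control at 52.8%. With eplerenone, replicate 2 held 74.6% and the other 4 rats were below the lowest control.

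Cyp4a3 and Cyp4a1 took larger shares in cirrhosis, 45.5% ± 15.7 and 24.96% ± 6.51 (SD, n = 5), than in controls, 23.2% ± 4.83 and 8.23% ± 5.19 (SD, n = 4), with overlapping ranges for Cyp4a3. Their mean levels were nevertheless lower in cirrhosis, at 110.6 against 342.9 FPM for Cyp4a3 and 60.2 against 111.3 FPM for Cyp4a1. The number of Cyp4a2 counts per Cyp4a3 count was 1.78 to 4.34 in controls, 0.0712 to 1.47 in cirrhosis and 0.191 to 3.74 with eplerenone. The share of Cyp4a8 was 21.3% to 31.2% in the 5 CCl4-treated rats of number 20 and 1.01% to 7.10% in those of number 15. Summed over the family, controls had 904.7 to 2212 FPM, cirrhosis rats 113.7 to 471.9 FPM and eplerenone-treated rats 144.4 to 2661 FPM.

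**Figure D3:**
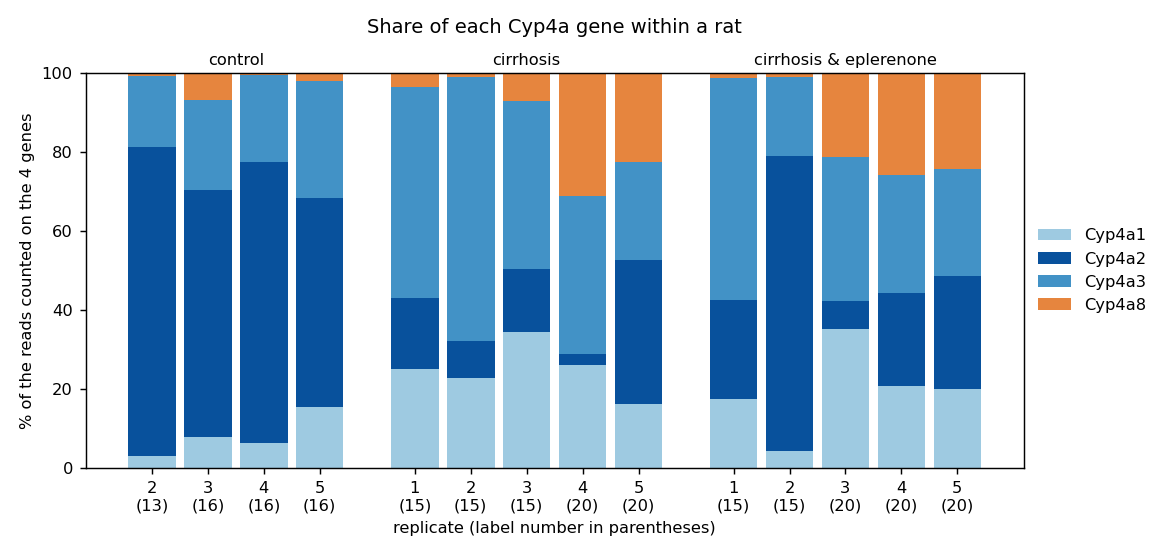
Share of each Cyp4a gene in the reads counted on all 4, in percent, 1 bar per rat with the label number in parentheses. Cyp4a2 takes 52.8% to 77.9% in controls and 2.84% to 36.4% in cirrhosis, and Cyp4a8 takes over 20% in each rat of number 20 alone.

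Likeness between genes was measured as Pearson's r of log2 FPM over the 14 rats after each group mean was subtracted. Differences between the 3 groups therefore do not enter, while those between label numbers do. The part of the label numbers in r was not tested. Likeness is given as a description with no p. Among the 4 genes, r was 0.82 for Cyp4a2 with Cyp4a3, 0.76 for Cyp4a1 with Cyp4a3 and 0.66 for Cyp4a1 with Cyp4a2, while Cyp4a8 stood at -0.24 with Cyp4a1, -0.02 with Cyp4a2 and -0.49 with Cyp4a3. The points of a pair share their libraries, and Cyp4a2 and Cyp4a3 can also share reads.

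Of 12795 genes with a mean of at least 1 FPM, those most like Cyp4a1 were Hsdl2 (r = 0.909), Crat (0.881), which encodes carnitine acetyltransferase, and Cpt2 (0.880), the carnitine palmitoyltransferase of the inner mitochondrial membrane. For Cyp4a2 they were Nit1 (0.940), Mrpl43 (0.934), a mitochondrial ribosomal protein, and Proz (0.925), protein Z of plasma. Those most like Cyp4a3 were Sar1b (0.911), a GTPase of vesicle transport, Pdp2 (0.911), a phosphatase that activates pyruvate dehydrogenase, and St13 (0.905). Cyp4a8 was most like Zfp574 (0.932), Map11 (0.873) and Rtn4ip1 (0.840). Ppara, which encodes the receptor, had r = 0.03 with Cyp4a1, 0.25 with Cyp4a2, 0.32 with Cyp4a3 and -0.10 with Cyp4a8 on this measure.

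The genes around the Cyp4a reaction were described as 9 lists with 99 genes tested. For these lists, a gene said to have fallen or risen was called by edgeR, and the others may also differ. In cirrhosis against control edgeR called 9 of the 99 higher and 32 lower, where it called 13.4% of all genes higher and 6.71% lower. The count of 41 was 17 without control replicate 5 and 57 without cirrhosis replicate 5. In cirrhosis & eplerenone against cirrhosis edgeR called 0 of the 99, with 19 at an unadjusted p under 0.05, and DESeq2 called 2. In cirrhosis & eplerenone against control 4 were higher and 5 lower, where 4.33% and 0.895% of all genes were called. The median log2 fold change over all genes was -0.01, 0.01 and 0.01 in the 3 comparisons.

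Of the receptor and its partners, Ppara fell in cirrhosis, from 8.92 ± 1.29 (SD, n = 4) to 2.18 ± 1.03 FPM (SD, n = 5), a log2 fold change of -2.03 (SE 0.45, edgeR FDR 0.00784), with every cirrhosis rat below every control. With eplerenone it was 9.66, 15.3, 6.60, 7.39 and 2.19 FPM, and 4 of 5 rats were above every cirrhosis rat. That change of 1.91 (SE 0.43) did not pass by edgeR (FDR 0.312) and passed by DESeq2 (FDR 0.0101). Cyp4a2 in the same 5 rats, in the same order, was at 239.6, 1984, 10.0, 70.55 and 123.4 FPM. A link between the levels of Ppara and Cyp4a2 was not tested. Ncor1, a corepressor, was the other of 13 receptor and cofactor genes that edgeR called lower in cirrhosis (-0.64, FDR 0.0305), and it called 0 higher. DESeq2 called 4 of the 13 lower and 0 higher. Only 1 of the 13 had a log2 fold change above 0, and the median was -0.64.

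Of 23 other PPARA target genes, 7 fell in cirrhosis and 1 rose, with a median log2 fold change of -0.86. The largest falls were those of Pdk4 (-2.92, edgeR FDR 0.0178), a kinase that inhibits pyruvate dehydrogenase, Fabp1 (-2.001, FDR 0.00375), the fatty acid binding protein of liver, Plin2 (-1.41, FDR 0.0179) of lipid droplets and Etfdh (-1.14, FDR 0.0230) of the electron transfer from beta-oxidation. The gene that rose was Txnip (0.99, FDR 0.0298). With eplerenone against cirrhosis 21 of the 23 had a log2 fold change above 0, with a median of 0.45, and 0 passed (edgeR), with 3 at an unadjusted p under 0.05 and 0 called by DESeq2. Against control Fabp1 was still lower with eplerenone (-1.70, FDR 0.0195).

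The steps after omega-hydroxylation were lower in cirrhosis in part. Aldh3a2, the fatty aldehyde dehydrogenase that forms the dicarboxylic acid, fell (-0.96, edgeR FDR 0.0319), as did Adh7 (-1.26, FDR 0.00643), while Aldh1a1, a retinaldehyde dehydrogenase, rose (1.95, FDR 0.00191) among 7 alcohol and aldehyde steps tested. Of 17 genes of dicarboxylic acid activation and peroxisomal oxidation, 9 fell and 1 rose, with a median of -0.88. Examples were Acsl1 (-1.63, FDR 0.0116), an acyl-CoA synthetase, Pex11a (-1.55, FDR 0.0119) of peroxisome division, Ehhadh (-1.19, FDR 0.0292), the bifunctional enzyme needed for dicarboxylic acids, and the transporter Abcd3 (-0.88, FDR 0.0191). The gene that rose, Abcd2 (FDR 0.0310), was at 0 to 0.231 FPM in controls, close to what 3 counts stand for, so no fold is given.

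With eplerenone against cirrhosis the values were 0.60 for Aldh3a2, 0.82 for Ehhadh and 0.62 for Abcd3, none past the threshold (edgeR FDR 0.338, 0.316 and 0.312). Among eplerenone-treated rats, replicates 1 and 2 of number 15 were above replicates 3 to 5 of number 20 for each of these genes. Levels were 324.6 and 448.5 against 137.5, 276 and 222.7 FPM for Aldh3a2. They were 193.9 and 238.1 against 57.7, 178.2 and 136 FPM for Ehhadh, and 209.9 and 195.9 against 85.8, 138.3 and 132.6 FPM for Abcd3. The highest cirrhosis rats were at 248.1, 163.5 and 128.5 FPM in this order. Against control, Adh7 (-1.41, FDR 0.00960) and Acot5 (-1.29, FDR 0.0486), a peroxisomal acyl-CoA thioesterase that also fell in cirrhosis (-1.18, FDR 0.0317), were lower with eplerenone and Aldh1a1 was higher (1.52, FDR 0.0151).

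Among the electron donors Por did not pass in any comparison by edgeR. Its log2 fold change was 0.52 (SE 0.48, FDR 0.437) in cirrhosis against control and 1.55 (SE 0.50, FDR 0.0836, and 0.0138 by DESeq2) with eplerenone against control. Pgrmc2 (-1.09, FDR 0.00368) and Pgrmc1 (-0.89, FDR 0.0471), heme-binding partners of P450 enzymes, fell in cirrhosis. They were listed with the electron donors, and no other of the 6 genes of that list passed the test. Pgrmc2 was also lower with eplerenone against control (-0.99, FDR 0.0143).

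Other fatty acid hydroxylases did not share a direction. Of 10 tested, Cyp4f5 (2.66, edgeR FDR 4.58e-04) and Cyp4f37 (2.33, FDR 5.28e-04) rose in cirrhosis, and Cyp4f1 (-1.19, FDR 0.0211) and Cyp4v3 (-1.11, FDR 0.0149) fell, with a median of -0.26. Cyp4f5 went from 6.67 ± 0.998 (SD, n = 4) to 42.1 ± 15.8 FPM (SD, n = 5) and stood at 20.2 ± 5.52 FPM (SD, n = 5) with eplerenone. Its change of -1.06 with eplerenone against cirrhosis passed by DESeq2 (FDR 0.0458) and not by edgeR (FDR 0.312), and it stayed above control (1.60, FDR 0.00809), as did Cyp4f37 (1.38, FDR 0.0146).

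The remaining lists place the family beside other arachidonic acid enzymes, growth hormone and phenobarbital. Of 8 arachidonic acid epoxygenases and epoxide hydrolases, Ephx1 rose in cirrhosis (1.02, edgeR FDR 0.0490) and Cyp2j10 (-1.03, FDR 0.0148) and Cyp2c23 (-0.83, FDR 0.0458) fell. Another list held 8 genes of growth hormone signalling or with a growth hormone dependent sex pattern. Of these, Srd5a1 (-2.37, FDR 0.00365), Ghr (-1.50, FDR 0.00784), the growth hormone receptor, Stat5b (-1.25, FDR 0.00951), its signalling factor, and Igf1 (-0.93, FDR 0.0444) fell, and 3 were not called. Cyp2c12, known as the female-specific P450 of rat liver, rose (2.73, FDR 0.0408). With eplerenone against control, Srd5a1 was the gene of this list that remained called (-2.42, FDR 0.00874). Of 7 phenobarbital-inducible genes, Cyp2b1 rose (6.06, edgeR FDR 0.0223, no p from DESeq2), from 1.40 to 5.07 FPM in controls to 14.4 to 1067 FPM in cirrhosis. Its cirrhosis mean was 236.3 FPM and its median 37.9 FPM, so the size of this fold rests largely on the highest rat. Ces2c rose as well (1.86, FDR 0.00197) and was also higher with eplerenone against control (1.60, FDR 0.0106). The receptors Nr1i3 (-1.51, FDR 0.0123) and Nr1i2 (-0.82, FDR 0.0113) fell. Whether any of these moved the Cyp4a genes was not tested.

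**Figure D4:**
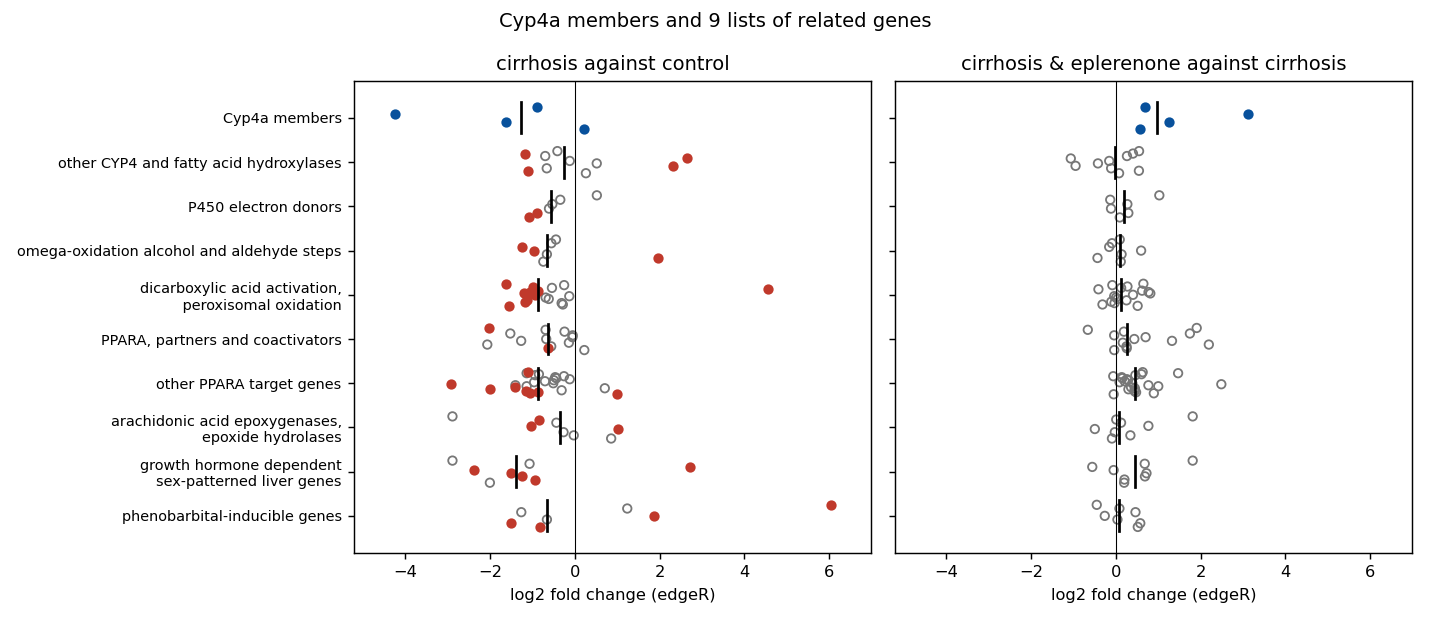
Log2 fold changes from edgeR of the 4 Cyp4a genes and of 9 lists of related genes, in cirrhosis against control and in cirrhosis & eplerenone against cirrhosis. Points are genes, filled red where a listed gene has an FDR below 0.05, and bars are list medians. The Cyp4a points are blue and carry no call. In cirrhosis 9 listed genes were called higher and 32 lower, and with eplerenone 0 were called.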

How the data were processed

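Liver poly(A) RNA was sequenced in pairs of 150 bp. Per the labels and the study's methods, the authors mapped reads to rn6 with HISAT2 2.1.0, counted them over exons with featureCounts 2.0.0, multi-mapped reads included, and annotated genes with BiomaRt 2.44.4 (Ensembl archive 101). The deposited table holds raw counts per gene, not normalized or filtered, in 14 sample columns. The strand setting is not given in the sources used here.

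Counts were filtered with filterByExpr (smallest count 10) and fitted for all 3 groups in 1 model with edgeR 4.0.16 in R 4.3.3 (TMM, quasi-likelihood test, Benjamini-Hochberg over 14417 genes, FDR below 0.05). DESeq2 1.42.0 was the alternative test and gave no p for 16 genes. Log2 FPM used a prior count of 2. The script was tested on simulated data. P-values measure the spread between the sequenced rats, as far as the labels name separate animals. Since these rats were picked by outcome, the differences and p-values do not stand for all treated rats.

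The members, lists and alternatives were chosen with earlier results of these data known. Genes named are the members, the 4 largest rises and 4 largest falls past the threshold in each list and comparison, and Ppara, Por, Aldh3a2, Ehhadh and Abcd3. Another gene named by this rule is not reported here. For likeness, the 3 genes of highest r were named. Promoters came from RefSeq (GRCr8), whose coordinates were not compared with rn6, and were aligned with Biopython 1.88. Alternatives changed normalization, filter, test, samples, replicate block and the summing of rows. Same-numbered samples of different groups had r from -0.33 to 0.19 over 13 pairs, so they were not treated as paired. Listed genes without a row were not analysed here.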

Additional observations from a re-analysis of the deposited data

Results flagged for a closer look

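Among 30 groups of 4 or 5 rats examined, 2 held a rat whose gap to its nearest neighbour exceeded Dixon's 95% critical value on the FPM scale. Chance flags about 1 in 20 groups where values are normally spread. Cyp4a2 was at 1984 FPM in cirrhosis & eplerenone replicate 2, a gap of 0.884 of the range of its group, and the next rat was at 239.6 FPM. The same rat was also high for Cyp4a3 (531.1 FPM) and Ppara (15.3 FPM). Por was at 754.4 FPM in cirrhosis & eplerenone replicate 1, a gap of 0.802 of the range, against 113.5 to 240.5 FPM in the other 4 rats. On log2 FPM, a scale added after seeing the data, the gaps were 0.400 of the range for Cyp4a2 and 0.604 for Por, neither past the critical value for 5 rats.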

How the results depend on the processing

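With 4 or 5 rats per group the standard error of Cyp4a2 exceeded 1 on the log2 scale, and reads counted on both limit how far Cyp4a2 and Cyp4a3 can be separated. Settings other than leaving out each rat in turn gave 124 values. They included summed rows, entered under both Cyp4a2 and Cyp4a3. No member passed a test in the main fit, so a test that stayed on its side did not pass. Of the 124, 121 stayed on their side of the threshold or, with no test, moved by less than the spread between rats. Among the latter, Cyp4a8 in cirrhosis was at -0.27 with the replicate block and -0.87 with 4 rats per group. Scaling by total counted reads moved the median of all genes by 0.29 in cirrhosis and 0.32 in cirrhosis & eplerenone against control, and Cyp4a1 in the latter turned to 0.10, still below that median. All genes called in cirrhosis & eplerenone against control were 753, and 1351 with total counted reads, 377 with at least 10 counts in every sample and 1523 by DESeq2. DESeq2 called 74 genes against cirrhosis instead of 2, and of the listed genes 2 instead of 0 there and 17 instead of 9 against control. Without cirrhosis replicate 5 and cirrhosis & eplerenone replicate 3, a choice taken from an earlier account of these data, 4832 instead of 2906 genes were called in cirrhosis, 1294 in eplerenone against cirrhosis with 25 of the listed genes, and Cyp4a2 was at 4.45 there. The summed row of Cyp4a2 and Cyp4a3 was at -3.08 in cirrhosis, an alternative chosen after seeing the data and not a value of Cyp4a3 alone.

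The replicate number does not pair these rats. With it as a block, 1743 genes were called in cirrhosis, 0 in eplerenone against cirrhosis, and 270 with 5 of the listed genes in eplerenone against control. The change of Cyp4a2 with eplerenone was 1.86 with this block and 2.27 with the animal label number as a block, and no member passed.

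Leaving out each rat in turn gave ranges of -1.05 to -0.55 (Cyp4a1), -5.29 to -3.91 (Cyp4a2), -1.81 to -1.42 (Cyp4a3) and -0.90 to 0.86 (Cyp4a8) in cirrhosis against control. Against cirrhosis, eplerenone gave 0.40 to 0.83, 0.98 to 4.16, 0.82 to 1.502 and 0.13 to 1.68 in the same order. Against control it gave -0.47 to 0.14, -3.26 to -0.80, -0.80 to -0.11 and 0.34 to 1.44. No member passed in any of these 14 fits in either comparison. Counts of all genes ranged from 1365 (without control replicate 5) to 4612 (without cirrhosis replicate 5), from 0 to 26, and from 221 (without control replicate 5) to 1277 (without cirrhosis & eplerenone replicate 2). Listed genes called ranged from 17 to 57, 0 to 1 and 4 to 14.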
